A study of Mus musculus with 146 samples.

Results

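The NF-kB subunit and feedback inhibitor set comprised 9 genes out of 22721 in a raw count table from resting mouse macrophages. The members were listed by name as the subunits Nfkb1, Nfkb2, Rel, Rela and Relb, the feedback regulators Nfkbia, Nfkbiz and Tnfaip3, and the ligand Tnf. Each of the 9 matched 1 row of the count table, and all 9 were also among the 10893 genes of a variance-stabilised (VST) table. The material was RNA of bone marrow-derived macrophages from 146 outbred mice of the strain Crl:CFW(SW)-US_P08 (CFW), 86 labelled female and 60 labelled male, all aged 16 weeks. No treatment or engineered allele was recorded, and every culture had been differentiated for 5 days in medium with 25% L929-conditioned medium, a source of macrophage colony-stimulating factor. One library was made per mouse, on 7 plates, with 6 libraries on plate 1 and between 22 and 24 elsewhere, and with 28 collection date labels. No mice were pooled according to the labels, and nothing in the design stimulated the NF-kB pathway.

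NF-kB proteins act as dimers that are held inactive in the cytoplasm by inhibitor proteins until a receptor signal leads to the inhibitor's destruction. Nfkb1 and Nfkb2 encode precursors that are cut to DNA-binding subunits without an activation domain, whereas Rela, Rel and Relb encode subunits that carry one. The canonical arm of the pathway releases dimers that contain the Rela or Rel product, and the non-canonical arm processes the Nfkb2 precursor to free the dimer with the Relb product. Nfkbia, Nfkbiz and Tnfaip3 are well known to be induced by NF-kB itself. The Nfkbia product captures dimers and returns them to the cytoplasm, the Nfkbiz product is a nuclear co-regulator of secondary response genes, and the Tnfaip3 product is a ubiquitin-editing enzyme that damps signalling from receptors. Tnf is the cytokine that both activates the pathway and is transcribed through it in macrophages.

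Library totals ranged from 14483441 to 120926429 counts with a median of 43815187, and 3 libraries were under 20000000. In 6 libraries the Y-linked counts went against the labelled sex. The 7 macrophage markers were detected in every library, with Csf1r between 1352 and 2093 CPM (counts scaled to the library total). Among markers of other cells, summed granulocyte precursor and neutrophil genes ranged from 75.9 to 1734 CPM and summed dendritic cell genes from 15.6 to 129 CPM. The T cell marker Cd3e was near 0 and was listed at 0 in 25 libraries. In these bulk cultures, fewer cells of a type and less RNA per cell cannot be told apart. The 6 libraries that went against their label and the 3 shallow ones entered every result. The tests by sex, plate and date were also run without each of these sets, the interaction of sex and plate without the 6 only, and the pairs and regressions without the 3 only.

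The promoters of the members are shown first because genes induced by NF-kB can carry NF-kB elements near their starts. The windows give letter matches only, and binding or regulation through them was not tested. RefSeq windows (GRCm38.p6) of 250 bases upstream of annotated starts were matched for 6 of the 9 members, 9 windows in all. A match to the NF-kB consensus, searched on both strands, stood in 6 of these 9 windows and in 4 of the 6 members (Nfkbia, Rel, Nfkb2 and Tnfaip3), against 3.90% of the 32851 windows of all genes. In the sequences that follow, written from 5′ to 3′ on the strand of the gene, capitals mark the letters that match the consensus on either strand. The Nfkbia window (chr12:55492648-55492897, minus strand) held its match 29 bases before the start, and the Rel window (chr11:23770971-23771219, minus strand) held a match that reads on both strands 92 bases before the start.
Nfkbia: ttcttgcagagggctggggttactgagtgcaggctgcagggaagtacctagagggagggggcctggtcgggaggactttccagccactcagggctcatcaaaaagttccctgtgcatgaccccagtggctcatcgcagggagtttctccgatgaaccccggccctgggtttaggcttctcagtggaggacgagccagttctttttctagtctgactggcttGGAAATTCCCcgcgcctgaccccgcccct
Rel: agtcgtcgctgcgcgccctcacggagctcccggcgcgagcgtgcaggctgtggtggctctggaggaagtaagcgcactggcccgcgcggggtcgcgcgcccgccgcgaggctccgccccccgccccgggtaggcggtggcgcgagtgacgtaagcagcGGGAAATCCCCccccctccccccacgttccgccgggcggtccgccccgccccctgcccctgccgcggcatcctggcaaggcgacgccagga

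Nfkb2 and Tnfaip3 each had a window with 2 separate matches, which 0.143% of all windows had. Nfkb2 had 4 matches in 3 windows, 1 for each of its annotated starts. For these genes only the 30 bases around each match are shown, since the windows overlap annotated exons. The Nfkb2 sites lie on chromosome 19, plus strand, at 46304689-46304718 and 46304707-46304736 in the first window, with match starts 39 and 11 bases before the annotated start, and at 46305449-46305478 and 46305695-46305724 in the other two, with match starts 236 and 225 bases before theirs. The Tnfaip3 sites lie on chromosome 10, minus strand, at 19015516-19015545 and 19015411-19015440, with match starts 125 and 12 bases before the start.
Nfkb2 site 1: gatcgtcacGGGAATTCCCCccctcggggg
Nfkb2 site 2: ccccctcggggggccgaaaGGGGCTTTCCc
Nfkb2 site 3: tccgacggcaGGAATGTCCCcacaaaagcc
Nfkb2 site 4: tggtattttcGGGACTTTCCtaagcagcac
Tnfaip3 site 1: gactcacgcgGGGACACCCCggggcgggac
Tnfaip3 site 2: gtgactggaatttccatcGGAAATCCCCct

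The Rela window and the Tnf window held no match to these letters. The Tnf window (chr17:35202008-35202257, minus strand) is printed as the contrast, with capitals left unused because nothing in it matched. It holds TATAAA, as does a Tnfaip3 window. That motif was found in 12.4% of all windows.
Tnf: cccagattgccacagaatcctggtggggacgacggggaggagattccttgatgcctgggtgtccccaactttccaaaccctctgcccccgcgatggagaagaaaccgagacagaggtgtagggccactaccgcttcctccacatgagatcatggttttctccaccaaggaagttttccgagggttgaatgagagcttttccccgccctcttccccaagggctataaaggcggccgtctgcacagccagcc

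Every member was expressed in every library. Among the subunits, Nfkb1 (chromosome 3, 135584655 to 135691547, minus strand, GRCm38) had a lowest, median and highest value of 106, 126 and 173 CPM. Rela (chromosome 19, 5637483 to 5648130, plus strand) had 54.8, 76.1 and 109 CPM. Nfkb2 (chromosome 19, 46304320 to 46312385, plus strand) had 26.1, 36.1 and 73.3 CPM. Nfkb1 and Rela thus stayed within a 2-fold range over the 146 mice (1.63-fold and 1.99-fold), whereas Nfkb2 spanned 2.80-fold. Rel (chromosome 11, 23736847 to 23770970, minus strand) had 18.7, 30.4 and 40.4 CPM, a span of 2.16-fold. Relb (chromosome 7, 19606217 to 19629438, minus strand) had 7.00, 12.4 and 32.2 CPM, a span of 4.59-fold. Of the exonic bases of Nfkb2, 18.1% lie under genes on the other strand and 14.1% of its sequence is shared with other genes, so some of its reads cannot be assigned with certainty in an unstranded library.

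Nfkbia (chromosome 12, 55489410 to 55492647, minus strand) had a lowest, median and highest value of 65, 83.6 and 189 CPM. Nfkbiz (chromosome 16, 55811375 to 55838899, minus strand) had 4.42, 9.88 and 23.1 CPM. Tnfaip3 (chromosome 10, 19000910 to 19015657, minus strand) had 17.2, 41.9 and 115 CPM. The regulators spanned 2.90-fold, 5.23-fold and 6.69-fold in this order, and the highest libraries lay well above the bulk for Nfkbia and Tnfaip3. Tnf (chromosome 17, 35199381 to 35202007, minus strand) had 13.6, 28.2 and 146 CPM, a 10.7-fold span.

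**Figure D1:**
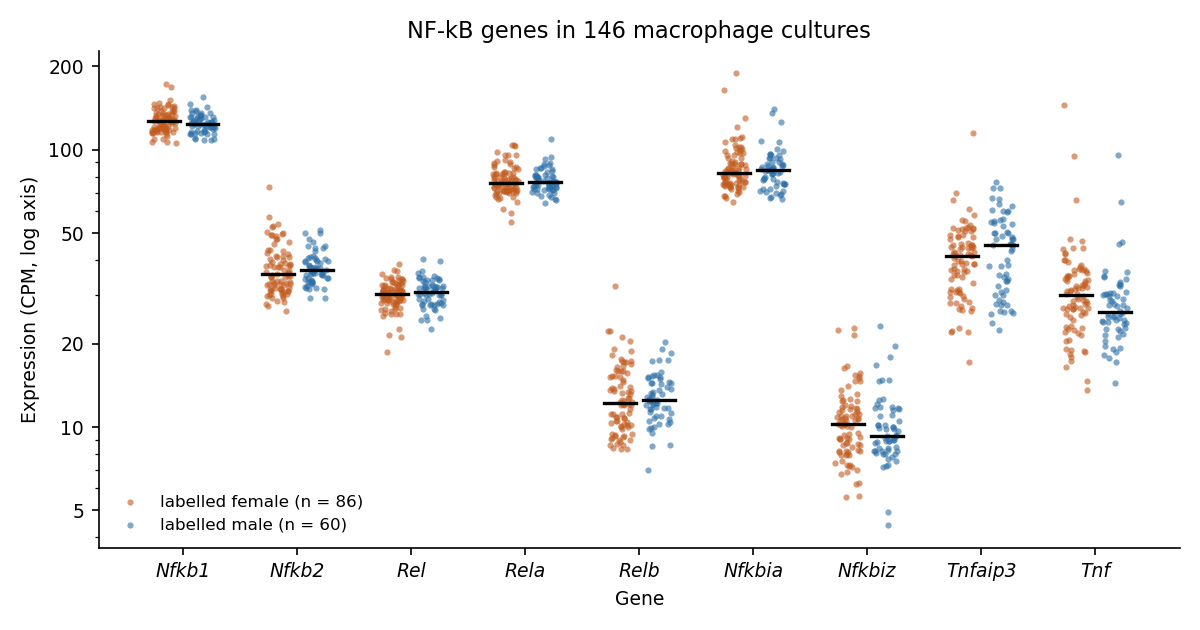
Expression of the 9 genes in CPM on a log axis, 1 point per library, with libraries labelled female (n = 86) and male (n = 60) side by side and black bars at the medians. Nfkb1 lies in a narrow band between 106 and 173 CPM, while Tnf runs from 13.6 to 146 CPM, and the 2 sexes overlap for every gene.

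The order of the levels was read per length, in TPM (counts divided by length and scaled to a fixed sum) over the union of annotated exons. Nfkbia was highest at 198 ± 38.1 TPM (SD, n = 146), followed by Rela at 92.8 ± 10.3, Tnf at 68.7 ± 32.6, Nfkb1 at 38.5 ± 3.46 and Nfkb2 at 30.1 ± 5.60. Tnfaip3 (21.5 ± 6.93 TPM), Rel (14.9 ± 1.79), Relb (12.3 ± 3.30) and Nfkbiz (7.64 ± 2.41) were lower. The inhibitor transcript was therefore more abundant per length than that of any subunit, and Nfkbia exceeded Rela in all 146 libraries. The other neighbours in this order held their order in 82.2% (Rel above Relb) to 95.2% (Nfkb1 above Nfkb2) of libraries, and their ranges overlapped. The place of Nfkb1 rests on the length used: over its longest annotated transcript (4149 bases in place of 12061) it reached 86 TPM, above Rela at 80.6 and Tnf at 52.8.

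Spread over the mice differed between the members. The coefficient of variation (CV, the SD as a percentage of the mean CPM) was 8.96% for Nfkb1, 11.4% for Rela and 11.5% for Rel, below the median of 13.7% over all VST genes. It was 18.7% for Nfkb2 and 26.9% for Relb, the pair of the non-canonical arm. For the induced genes it was 19.9% for Nfkbia, 31.6% for Nfkbiz, 32.2% for Tnfaip3 and 48.4% for Tnf. Tnf thus varied more than 96.2% of the VST genes and Nfkb1 more than 14.7% of them. Counting error alone would give a CV between 1.39% and 5.04% for the 9 members.

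The first comparison the labels allow is between the sexes, fitted over all genes with edgeR's quasi-likelihood test with plate as a covariate. None of the 9 members passed an adjusted p of 0.05 (0 at an unadjusted p under 0.05), where 5.02% of the 12060 genes tested did. limma voom and DESeq2 also called 0 of 9. Tnf, the ligand, had the largest difference. Its lowest, median and highest values were 13.6, 29.9 and 146 CPM in females and 14.5, 26.0 and 95.9 CPM in males, with a male minus female log2 difference of -0.14 (SE 0.087, edgeR adjusted p = 0.386). Over the alternatives run, this difference and its adjusted p moved with the covariates and plates used. It was -0.21 with lane within plate in the model (edgeR p = 0.0132, adjusted p = 0.0968), -0.22 without plate 4 (edgeR p = 0.0151, adjusted p = 0.221) and -0.08 without plate 7 (edgeR adjusted p = 0.701). With lane in the model, 3 of the 9 members (Nfkb1, Rel and Tnf) had an unadjusted p under 0.05. Tnfaip3 had values of 17.2, 41.5 and 115 CPM in females and 22.4, 45.3 and 76.7 CPM in males, with a log2 difference of 0.10 (SE 0.078, edgeR adjusted p = 0.487). The other 7 members differed by between -0.06 and 0.03 on the log2 scale, and the ranges of the sexes overlapped for all 9. The sex difference did not pass as different between plates for any member (0 of 9, against 0.0415% of all genes), and the only unadjusted p under 0.05 was that of Nfkbia, 0.0238.

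Upstream and inhibitor genes were tested in the same fit. None of 19 signalling genes (kinases, adaptors and ubiquitin ligases of the pathway), 10 receptor and adaptor genes or 17 further inhibitors passed by sex. Over all genes, 5.02% did. Of the other pathway lists, only the inflammatory targets held a call by sex (1 of 23 genes tested). The smallest edgeR adjusted p among receptor genes was 0.0820, for Tlr4, the lipopolysaccharide receptor. Among the further inhibitors it was 0.0558, for Tnip3, which encodes a partner of the Tnfaip3 product. A p that misses the threshold does not show that the sexes were alike.

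Plate, tested in the same model, marked 7 of the 9 members, where 74.8% of all genes passed. The members' share is close to that background. Rela had the smallest mean on plate 1 (70.3 CPM) and the largest on plate 10 (83.3 CPM), with an edgeR adjusted p of 8.23e-05. Rel ranged from 27.4 CPM on plate 3 to 32.9 CPM on plate 8 (edgeR adjusted p = 4.84e-05). Nfkb2 and Relb were both highest on plate 2, at 43.1 and 15.2 CPM, against 35.1 and 11.8 CPM on plate 3. The mean of Tnf was 35.7 CPM on plate 4 and 23.7 CPM on plate 1. Nfkbia (edgeR adjusted p = 0.487) and Tnfaip3 (0.535) were the members that did not pass, and plate held 3.34% and 3.47% of their VST variance against a median of 15.6% over all genes. In the pathway lists 14 of 19 signalling genes, 9 of 10 receptor genes and 17 of 17 further inhibitors passed by plate.

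Collection date marked all 9 members after plate and sex had been taken into account (edgeR quasi-likelihood test with Benjamini-Hochberg adjustment), where 69.2% of all genes passed. The smallest adjusted p-values were those of Tnf (1.01e-08), Nfkbiz (2.86e-08) and Nfkbia (1.31e-06), and the largest was that of Rela (0.0223). Without the 3 libraries under 20000000 counts, Rela had an adjusted p of 0.0699. Date held 52.6% of the Nfkbiz variance left after plate and sex, 48.3% for Tnf, 47.3% for Nfkb1 and 47.1% for Nfkbia, against a median of 33.9% over all genes. Of the 28 date labels, 18 lay on 1 plate only. The date labels are written in more than 1 format, so the day and month of some cannot be told apart, and they are used here as names without an order.

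Most members shared a high date on which Tnf was low. The 5 libraries labelled 22/07/2010 had the highest median of the 17 dates with 4 or more libraries for Nfkb1 (147 CPM), Nfkb2 (49.5), Rel (33.7), Relb (15.9), Nfkbia (99.3), Nfkbiz (14.7) and Tnfaip3 (58.3). For Rela (85.7 CPM) this label ranked second. The same 5 libraries had the lowest median of these dates for Tnf, 18.8 CPM (range 18.2 to 27). Tnf was highest at the label 2011-10-03, with a median of 39.3 CPM over 5 libraries (range 29.8 to 95.9), where Nfkbia (97 CPM) and Tnfaip3 (50.1 CPM) ranked second. At the label 16/06/2011, with 10 libraries, Tnf was between 13.6 and 28.5 CPM. Nfkbiz ranked 5 of 17 at the label 2011-10-03, with a median of 11.7 CPM. Nfkbia and Tnfaip3 were thus high at 22/07/2010 and at 2011-10-03, and Tnf at 2011-10-03 only. What differed between the dates was not tested.

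**Figure D2:**
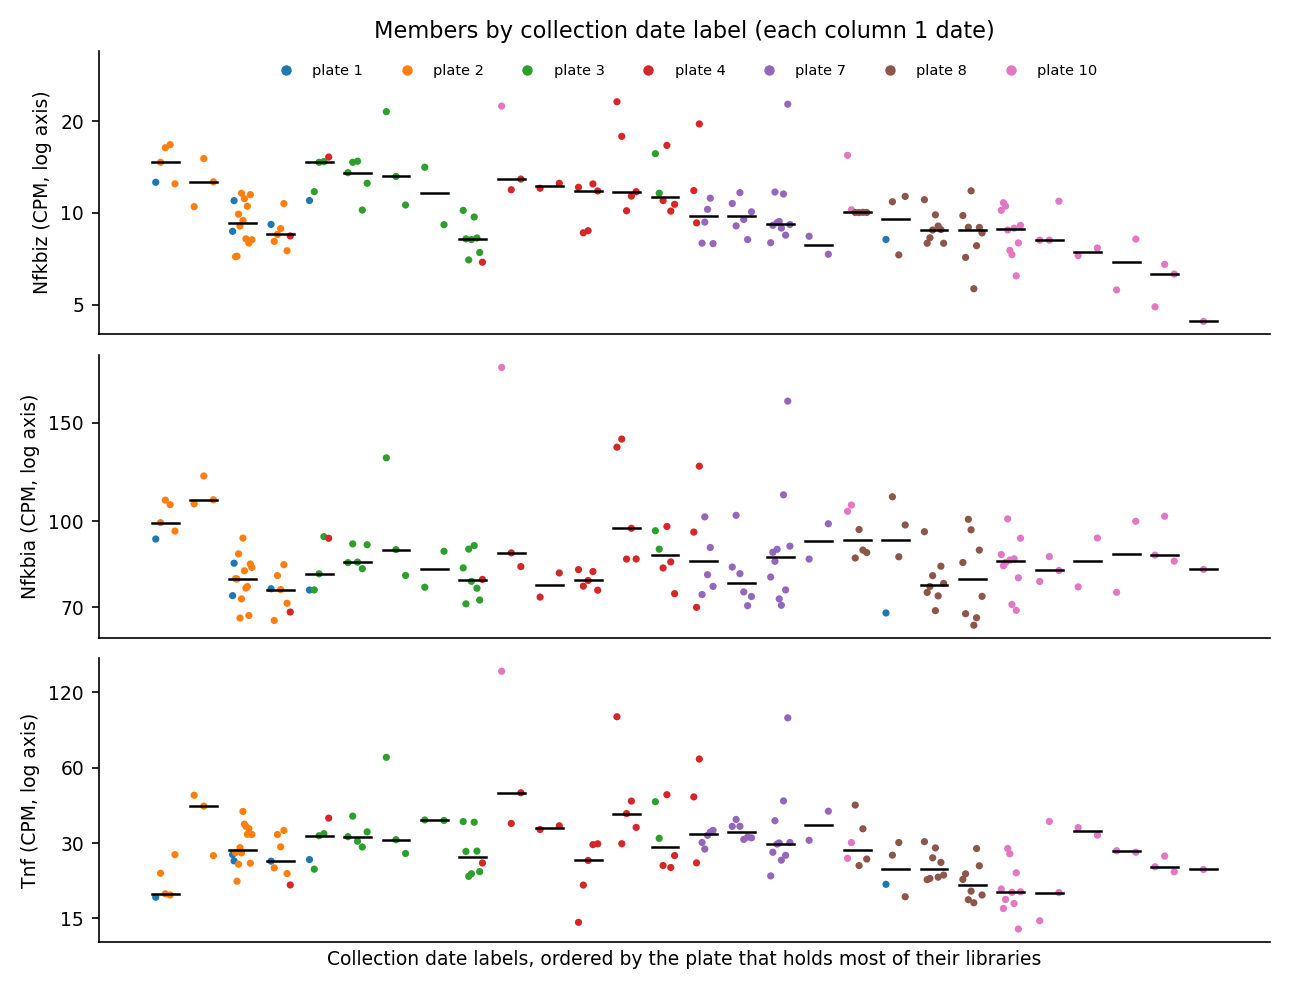
Nfkbiz, Nfkbia and Tnf in CPM on log axes by collection date label, 1 column per date, 1 point per library coloured by plate, with bars at the medians. Dates are ordered by plate and then by their Nfkbiz median. In the leftmost column (the label 22/07/2010) Nfkbiz and Nfkbia are high, with medians of 14.7 and 99.3 CPM, while Tnf is low at 18.8 CPM.

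In the pathway lists, 15 of 19 signalling genes, 9 of 10 receptor genes and 15 of 17 further inhibitors passed by date, where 69.2% of all genes did. All 18 immediate early genes (transcription factors and phosphatases induced within minutes of a stimulus) passed, as did 21 of the 23 inflammatory target genes tested, but only 1 of 17 interferon-induced genes did.

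Pairs of members were compared over the 146 libraries with plate and sex removed from the VST values. Spearman's rho was positive in 34 of the 36 pairs, with a median of 0.397. It exceeded 0.3 in 23 pairs and 0.5 in 9, whereas 11.6% and 2.46% of all 59323278 pairs of VST genes lay above these levels. In a limma regression of every VST gene on each member in turn, 28 of the 36 pairs passed in both directions. All member calls had positive slopes. With Nfkbia 8 of the other 8 members passed (19.8% of all genes with a positive slope). The count was 7 of 8 with Nfkb1 (23.7%), Nfkb2 (18.0%), Relb (18.6%), Nfkbiz (18.5%) and Tnfaip3 (18.8%). It was 6 of 8 with Rela (31.6%), 4 of 8 with Rel (27.9%) and 4 of 8 with Tnf (23.0%), the members' counts nearest to these shares being those of Rel and Tnf. For Tnfaip3 the count was 4 of 8 without plate 2. Negative slopes passed for 24.3% of all genes with Nfkb1, 20.1% with Nfkb2, 28.2% with Rel, 34% with Rela, 20.4% with Relb, 21.6% with Nfkbia, 19.6% with Nfkbiz, 20.7% with Tnfaip3 and 21.4% with Tnf.

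Nfkb2 and Relb, whose products form the non-canonical dimer, were the most closely matched members. Their values gave a Pearson r of 0.864 and a rho of 0.845 (permutation p = 1e-05 each, the smallest the 100000 permutations within plates can give, over 36 pairs), and limma gave an adjusted p of 6.18e-39 in the weaker direction. Only 0.00456% of all gene pairs had a higher rho. Within the 7 plates rho was 0.727 to 0.907, and without the 2 libraries farthest from the median of Nfkb2 r was 0.842. Nfkb2 with Nfkbia (rho 0.681, r 0.658, plates 0.407 to 0.788) and Relb with Nfkbia (rho 0.644, r 0.617, plates 0.367 to 0.943) came next. The pair of the induced regulators Nfkbia and Nfkbiz had a rho of 0.612 and an r of 0.733, or 0.665 without the 2 farthest libraries, and was positive in all 7 plates (0.267 to 0.771). Permutation p was 1e-05 for r and rho in each of these pairs.

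The canonical subunits were less alike. Rela and Rel gave a rho of 0.119 (permutation p = 0.161) and an r of 0.15 (permutation p = 0.0639), with limma's adjusted p at 0.107. The 10 pairs among subunits had a median rho of 0.456, and the 15 pairs of a subunit with Nfkbia, Nfkbiz or Tnfaip3 a median of 0.401. Rel, whose closest member was Nfkbiz (rho 0.564), was the subunit least linked to the others. The rho of Rel and Nfkbiz was 0.380 with date in place of plate and 0.326 with nothing removed. That of Rel and Nfkb1 went from 0.314 to 0.0145 with date in place of plate.

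Tnf stood apart from the other members when only plate and sex were removed. Its 8 pairs had a median rho of 0.163. The 4 lowest pairs of the set all held Tnf: Rel (rho -0.09, permutation p = 0.268, r 0.0060), Rela (rho -0.04, permutation p = 0.621, r -0.08), Tnfaip3 (rho 0.03, permutation p = 0.686, r 0.187) and Nfkb1 (rho 0.07, permutation p = 0.390, r 0.0580). Tnf with Nfkbia gave a rho of 0.382 and an r of 0.567 (permutation p = 1e-05 each), and r was 0.414 without the 2 libraries farthest from the median of Nfkbia. Between plates this pair ran from -0.371 on plate 1, with 6 libraries, to 0.714 on plate 4. Tnf with Tnfaip3 was positive in 2 of 7 plates (-0.714 to 0.354).

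**Figure D3:**
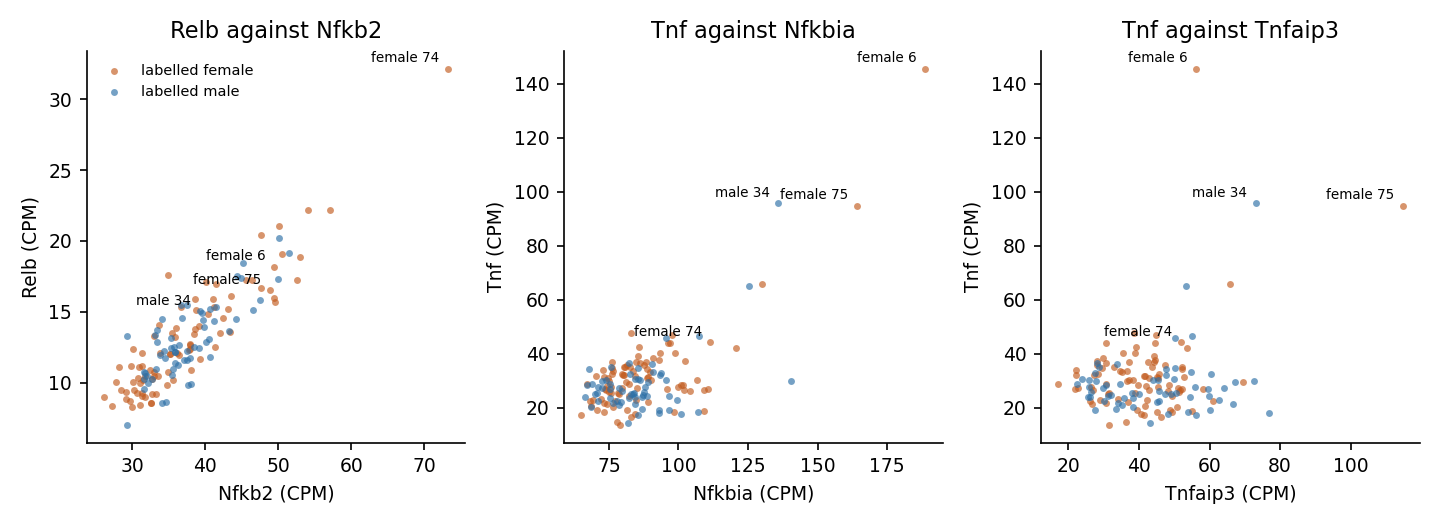
CPM values of Relb against Nfkb2, Tnf against Nfkbia and Tnf against Tnfaip3, 1 point per library coloured by labelled sex, with 4 libraries named. Relb and Nfkb2 form a line that female 74 extends to 73.3 and 32.2 CPM. In the panels with Tnf a few libraries, among them female 6 at 146 CPM, lie far above a broad cloud.

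The links of Tnf moved when the main axis of variation over all other genes was removed as well. The first principal component of the 10884 VST genes outside the set held 21.6% of their variance. It gave an r of 0.444 with Tnf and of -0.52 with Rela, and the other 7 members lay between -0.36 and -0.24. The genes closest to it on the side of Tnf were Rpa1 (r 0.95), a DNA replication factor, and Jpt2 (0.95), and on the other side Gm2a (-0.94), a lysosomal activator of lipid breakdown, and Btg1 (-0.94), which restrains proliferation. Summed dendritic cell markers gave r -0.81 with this component, osteoclast genes -0.77, B cell markers -0.71 and mitotic genes 0.62. Of the 6 B cell markers 5 had a mean under 1 CPM, as had 5 of the 8 dendritic cell markers. The part of these lists in the members' pairs was not tested.

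With this component removed, rho between Tnf and Nfkbia went from 0.382 to 0.744, between Tnf and Relb from 0.414 to 0.691, between Tnf and Nfkb2 from 0.402 to 0.670, and between Tnf and Nfkbiz from 0.254 to 0.498. With the first 5 components removed, these 4 values were 0.781, 0.694, 0.698 and 0.676. Nfkb2 and Relb kept a rho of 0.809 without the first component. The pairs that passed in both directions went from 28 to 22 with the first component removed and came to 28 with 5 removed.

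**Figure D4:**
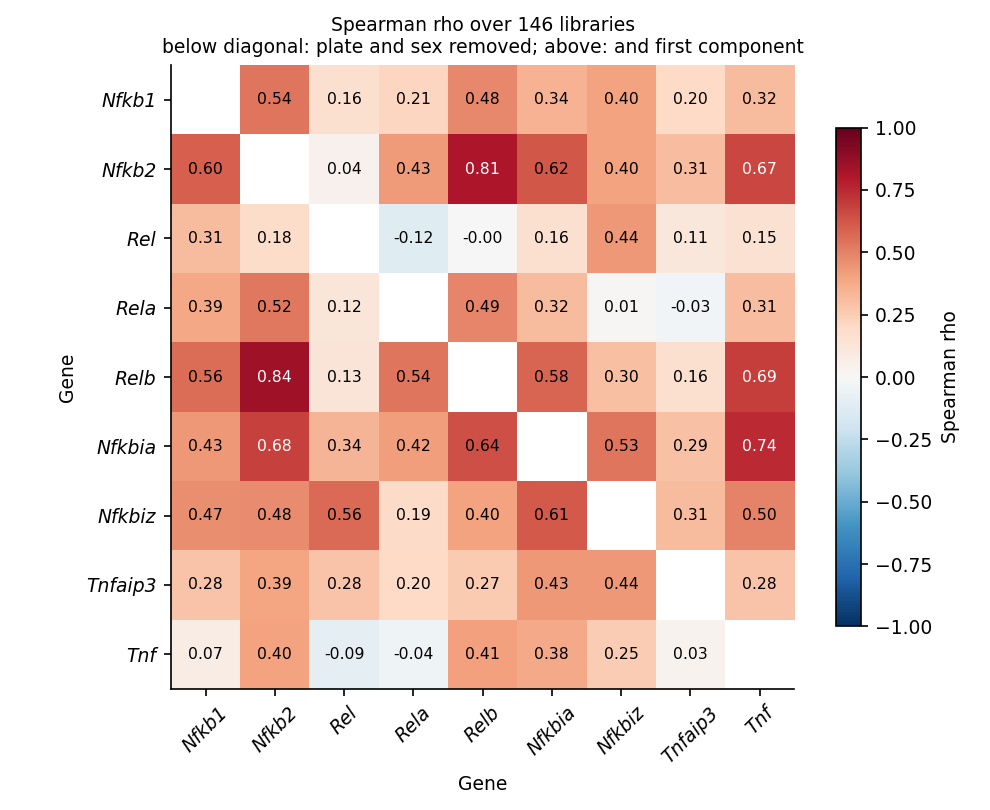
Spearman's rho for the 36 pairs of members over 146 libraries, with plate and sex removed below the diagonal and the leading component of the genes outside the set removed as well above it. In the Tnf row most cells are pale, as with Rel (-0.09) and Tnfaip3 (0.03), while in the Tnf column the cells with Nfkbia (0.74), Relb (0.69) and Nfkb2 (0.67) are dark.

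The genes outside the set whose levels were most like each member, by Pearson r over the 146 libraries, differed between roles. For Nfkb2 they were Nfkbie (r 0.734), an inhibitor of the same family as Nfkbia, Tnip1 (0.718), a partner of the Tnfaip3 product, Traf3 (0.699), the adaptor that restrains the non-canonical arm, Ralgds (0.604), Casp4 (0.599) and Acod1 (0.589), the enzyme that makes itaconate. Relb shared the first 4 of these, as Tnip1 (0.722), Nfkbie (0.707), Traf3 (0.694) and Ralgds (0.666), followed by Mtmr14 (0.627) and Zc3h12a (0.594), a ribonuclease that degrades inflammatory transcripts. Adam10, a membrane protease, was among the lowest for both (-0.53 with Nfkb2 and -0.54 with Relb). For Nfkb1 the closest were Acod1 (0.663), Tnip1 (0.644), Spi1 (0.591), a transcription factor that specifies macrophages, Rnf220 (0.584), Clec4e (0.584) and Mon1b (0.578), and the lowest was Psd3 (-0.62).

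Nfkbia and Nfkbiz were each closest to Cxcl2, a neutrophil-attracting chemokine, with r 0.840 and 0.736. Cxcl2 itself had a lowest, median and highest value of 0.482, 2.50 and 40.2 CPM, so a few libraries stood far above the rest, and without the 2 libraries farthest from the member's median r was 0.796 with Nfkbia and 0.673 with Nfkbiz. The next for Nfkbia were Pde4b (0.742), Ccrl2 (0.698), Zc3h12a (0.696), Zfp36 (0.684), which encodes a protein that destabilises Tnf mRNA, and Dusp1 (0.668), a phosphatase that turns off MAP kinases. For Nfkbiz they were Cflar (0.666), an inhibitor of death receptor signalling, Pde4b (0.659), Jag1 (0.638), Ccrl2 (0.627) and Ppp1r15a (0.615). Ogfrl1 was among the lowest for both (-0.55 each). For Tnfaip3 the closest genes were Jun (0.604), Plk2 (0.587), Psd4 (0.575), Il1rn (0.570), which encodes the interleukin receptor antagonist, Hivep2 (0.562) and Egr2 (0.554). Jun and Egr2 are in the immediate early list, as are Zfp36 and Dusp1 among the partners of Nfkbia. Mtmr4 was lowest (-0.51).

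For Tnf the closest genes were Zc3h12c (0.665), Tlr2 (0.651), a receptor for bacterial lipopeptides, Nfkbie (0.611), Ccl4 (0.609), Marcksl1 (0.606) and Icam1 (0.605). Tlr2 held with collection date in place of plate (0.698), and the lowest gene was the cell cycle inhibitor Cdkn1b (-0.57). Without the 2 libraries farthest from the median of Tnf, r with Zc3h12c was 0.547 and with Tlr2 0.620.

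Rela and Rel had many more partners than the other members. With Rela, 766 genes had r above 0.5 and 871 had r below -0.5, led by Sphk2 (0.823), Wbp1l (0.806), Eef2 (0.805), Sik3 (0.787), Map2k7 (0.787) and Rnf44 (0.772) and, at the other end, Impa1 (-0.80), Nedd1 (-0.79) and Metap2 (-0.79). Map2k7 shares 38.7% of its sequence with other genes and is uncertain. With Rel, 307 genes had r above 0.5, led by Apc (0.720), Ubn2 (0.704), Vcpip1 (0.692), Itch (0.674), Zeb2 (0.674) and Lnpep (0.673), and Cdk4 (-0.64), Mrpl28 (-0.63) and Stub1 (-0.63) were lowest, the last uncertain because 35.8% of its sequence is shared. For the other members this number was between 17 (Tnf) and 76 (Nfkb1).

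Gene length and base composition moved with these partner lists. Both were read from the longest annotated transcript of each gene. The 100 genes most like Rel had a median length of 7781 bases and a median GC content of 43.6%. The 100 least like it had 2325 bases and 56.1%, and all genes 3411 bases and 49.4%. For Rela the GC content was 55.3% at the top and 41.9% at the bottom, for Nfkb2 54.8% and 41.8%, and for Relb 55% and 41.7%. For Nfkbia the figures were 49.6% and 48.2%, and for Tnfaip3 50.3% and 49.7%. Their part in the partner lists was not tested.

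Further inhibitors of the pathway rose with most of the members. Over all genes, 19.8% rose and 21.6% fell with Nfkbia, 18.6% and 20.4% with Relb, and 23.0% and 21.4% with Tnf. With Nfkbia, 12 of the 17 further inhibitors rose and 1 fell, led by Zc3h12a (slope 0.15 VST units, near log2, for each SD of Nfkbia, SE 0.014), Nfkbie (0.18, SE 0.021), Tnip3 (0.29, SE 0.034) and Tnip1 (0.09, SE 0.012). With Relb 10 rose and 1 fell, led by Tnip1 (0.12, SE 0.0097) and Nfkbie (0.21, SE 0.018). With Tnf 7 rose and 1 fell, the latter being Itch (-0.05, SE 0.012). The median slope of the list was 0.04 with Nfkbia and with Relb, and 0.00 over all genes. Among 19 signalling genes, 7 rose with Nfkbia and 1 with Tnf, that gene being Traf3 (0.05, SE 0.010). With Rela 12 of 19 rose and 1 fell (31.6% and 34% of all genes), and with Rel 10 rose and 4 fell (27.9% and 28.2%). The one with the smallest p with Rel was Ikbkg (0.10, SE 0.012), the regulatory subunit of the inhibitor kinase.

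With Nfkb1, 7 of 10 receptor genes rose and 0 fell (23.7% and 24.3% of all genes), led by Tlr2 (0.17, SE 0.026) and Il1r1 (0.17, SE 0.029). With Tnf, 2 of 10 rose and 3 fell, near the shares of all genes (23.0% and 21.4%). Tlr2 (0.23, SE 0.023) and Myd88 (0.03, SE 0.0078) rose, whereas Tnfrsf1b (-0.16, SE 0.028), a receptor for the Tnf product, Il1r1 (-0.13, SE 0.031) and Tlr4 (-0.08, SE 0.022) fell.

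Inflammatory targets, immediate early genes and interferon-induced genes also divided the members. Of 15 inflammatory targets in the VST table, 12 rose with Nfkbia and 0 fell, led by Cxcl2 (0.67, SE 0.036), Ier3 (0.20, SE 0.027), Cd83 (0.29, SE 0.043) and Sod2 (0.06, SE 0.010). With Tnf 8 rose and 0 fell, led by Ccl4 (0.28, SE 0.031), Icam1 (0.14, SE 0.016), Cxcl2 (0.40, SE 0.058) and Ccl2 (0.20, SE 0.031). With Rela 9 rose and 4 fell (31.6% and 34% of all genes), Gadd45b rising (0.21, SE 0.029) and Ccl2 falling (-0.20, SE 0.031). Of 18 immediate early genes, 15 rose with Nfkb2 and with Relb, 13 with Nfkbia, 12 with Rela and 10 with Tnfaip3. With these members 0 fell. With Nfkbiz 11 rose and 1 fell, with Nfkb1 10 rose and 2 fell, and with Rel 8 rose and 2 fell. Over all genes, 18.0% rose with Nfkb2, 18.6% with Relb, 19.8% with Nfkbia, 31.6% with Rela and 18.8% with Tnfaip3. The shares that rose and fell were 18.5% and 19.6% with Nfkbiz, 23.7% and 24.3% with Nfkb1, and 27.9% and 28.2% with Rel. With Tnf, 6 rose and 1 fell, against 23.0% and 21.4% of all genes. Dusp1 (0.40, SE 0.037) and Zfp36 (0.18, SE 0.017) led with Nfkbia, and Jun (0.16, SE 0.018) and Egr2 (0.40, SE 0.051) with Tnfaip3.

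Interferon-induced genes rose with Tnf in 15 of 16 cases and fell in 0, led by Ifih1 (0.14, SE 0.026), Oasl1 (0.27, SE 0.051), Ddx58 (0.15, SE 0.031) and Isg15 (0.21, SE 0.045), with a list median slope of 0.21. With Rela 0 rose and 10 of 16 fell, where 34% of all genes fell, led by Ifih1 (-0.13, SE 0.026) and Oas1a (-0.20, SE 0.043). With Nfkb1 8 rose (23.7% of all genes), and with Nfkb2, Relb and Nfkbia 0 rose and 0 fell. Mitotic genes fell with Rela (34% of all genes) and with Relb (20.4%) in 9 of 10 cases, Bub1 most clearly (-0.17 with Rela, SE 0.015). They fell in 8 cases with Nfkbia (21.6% of all genes), 7 with Nfkb1 (24.3%) and 5 with Nfkb2 (20.1%). The count was 4 with Nfkbiz (19.6%), 2 with Tnfaip3 (20.7%) and 4 with Rel (28.2%), with which 1 rose. With Tnf 2 of the 10 mitotic genes rose, where 23.0% of all genes did.

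The summed levels of these lists, on a log2 CPM scale, were compared with the members as well (171 relations computed, with permutation p-values adjusted over them), and did not follow the counts of genes in every case. The immediate early sum gave r 0.637 with Tnfaip3 (rho 0.626, r 0.613 without the 2 farthest libraries), 0.612 with Nfkbia, 0.592 with Nfkbiz and 0.532 with Nfkb2, all with an adjusted permutation p of 6.33e-05, and 0.139 with Tnf (adjusted permutation p = 0.166). For the remaining members it gave r 0.464 with Relb, 0.408 with Rela, 0.340 with Rel and 0.320 with Nfkb1. The inflammatory target sum gave r 0.602 with Tnf (rho 0.488, r 0.490 without the 2 farthest). With Rela, where 9 targets rose and 4 fell, the sum gave r -0.24 (adjusted permutation p = 0.0132), and with Nfkb1, where 9 rose and 1 fell, it gave r 0.0899 (adjusted permutation p = 0.379). Beside these, dendritic cell markers gave r 0.570 with Rela and -0.36 with Tnf, and granulocyte precursor and neutrophil markers 0.343 with Nfkb1 and -0.32 with Tnf. Mast cell and basophil markers gave r 0.427 with Nfkb1 and 0.405 with Rela, osteoclast genes -0.40 with Tnf and 0.391 with Tnfaip3, and T and NK cell markers -0.39 with Tnf. Most of the dendritic cell markers were scarce, 5 of 8 having a mean under 1 CPM. So were 4 of 5 mast cell and basophil markers and all 5 T and NK cell markers in the count table. The summed T and NK cell markers had a median of 1.61 CPM in females and 1.59 CPM in males. The part of the cells of these marker lists in the members' levels was not tested. The log2 library total gave r between -0.09 and 0.14 with the 9 members.

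**Figure D5:**
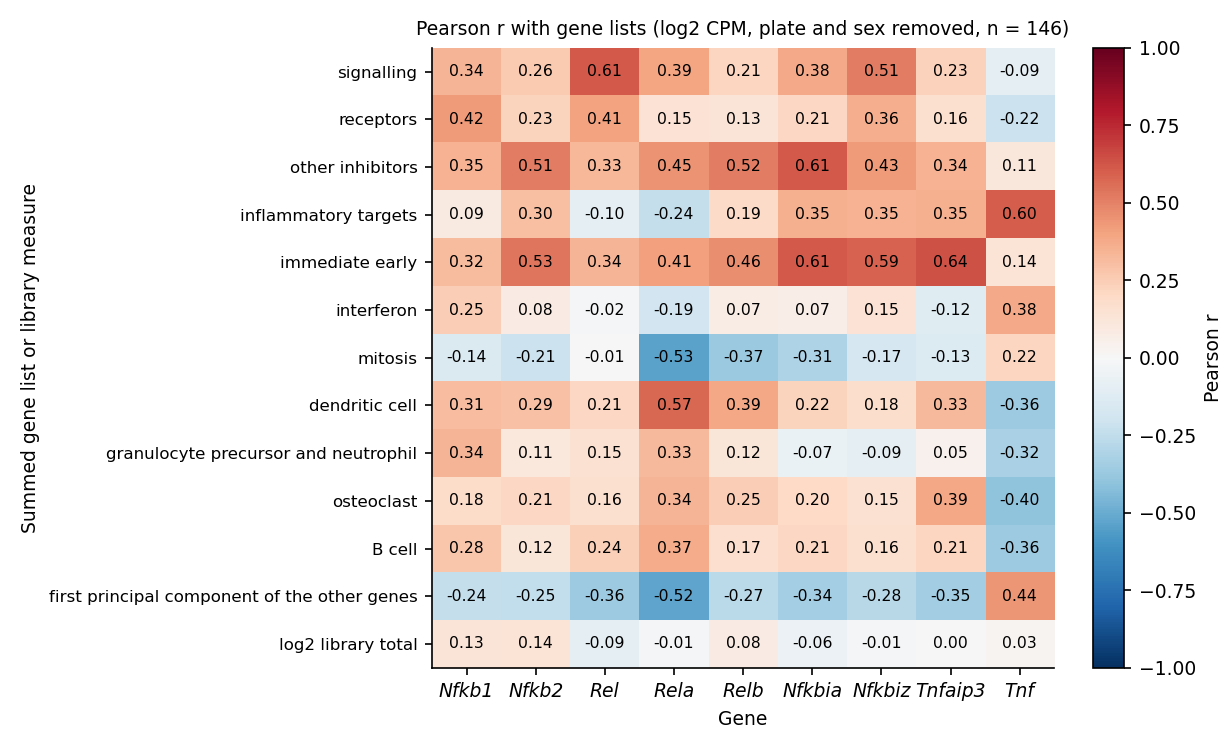
Pearson's r of each member with summed gene lists, the leading component of the genes outside the set and the log2 library total, over 146 libraries with plate and sex removed. The immediate early row is warm for Tnfaip3 (0.64), Nfkbia (0.61) and Nfkbiz (0.59) and pale for Tnf (0.14), and the inflammatory target row is warmest for Tnf (0.60).

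A few libraries, described here after their values were seen, carried the extremes. Female 6 (plate 10, 21342324 counts) had the highest Nfkbia (189 CPM) and Tnf (146 CPM), the third highest Nfkbiz (22.4 CPM), and the highest Ccrl2 (36.1 CPM), Zc3h12a (37.5 CPM) and Zfp36 (60.3 CPM). Its Nfkb1 (127 CPM) and Rela (75.1 CPM) were near the medians. Female 75 (plate 7) had the highest Tnfaip3 (115 CPM, against a next value of 76.7), Cxcl2 (40.2 CPM), Ccl3 (69.8 CPM) and Ccl4 (55.9 CPM), with Nfkbia at 164 CPM and Tnf at 94.9 CPM. Male 34 (plate 4) had the highest Nfkbiz (23.1 CPM) and the second highest Tnf (95.9 CPM) and Cxcl2 (39.7 CPM). These 3 libraries were high in feedback genes, ligand and chemokines together. Among the feedback genes, the Tnfaip3 of female 6 ranked only 18 of 146. Their Nfkb1 (123 to 130 CPM) and Rela (73.4 to 78.1 CPM) were near the medians, while the Rel of male 34 (34.8 CPM) ranked 11 of 146. The subunits of the non-canonical arm were higher. Nfkb2 ranked 13 of 146 in female 6, 14 in female 75 and 47 in male 34. Relb ranked 11, 22 and 38 in the same order.

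Female 74 was highest in other members, on the same plate and date label as female 75. It had the highest Nfkb1 (173 CPM), Nfkb2 (73.3 CPM) and Relb (32.2 CPM) of all libraries, with the highest Acod1 (121 CPM), Tnip1 (131 CPM), Sod2 (112 CPM) and Il1rn (156 CPM). Its Nfkbiz (11.5 CPM) ranked 41 of 146, while its Nfkbia (111 CPM) ranked 8, its Tnf (44.2 CPM) 10, its Ccl3 (58.4 CPM) second and its Ccl4 (33.3 CPM) seventh. It was also the deepest library, at 120926429 counts. Male 37 (plate 4) had the highest Rela (109 CPM) and the second highest Rel (39.9 CPM), with the third highest Nfkbia (140 CPM) but a Tnf of 29.8 CPM, near the median.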

How the data were processed

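RNA of 146 macrophage cultures was sequenced as 100-base reads. The authors' deposited files were a table of raw gene counts and a table of log2-scale VST values. Per the submitters' processing notes, the tools were FastQC, TopHat2 2.0.11, HTSeq 0.6.1 and DESeq2, with the build GRCm38 (mm10). The annotation release is not given in the sources used here. IDs were matched to GENCODE M21 (21822 of 22721 matched, 899 did not), and every sample column was assigned through its title. CPM, TPM and all tests were computed from these tables. The members and gene lists were chosen with earlier results of these data known.

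Sex, plate and date were tested on the counts with edgeR 4.0.16 (quasi-likelihood, TMM, low-count filter) over all genes, with limma 3.58.1 voom and DESeq2 1.42.0 as alternatives, under R 4.3.3. Gene lists comprised 7 pathway and 10 marker lists. Every VST gene was regressed on each member with limma. An adjusted p under 0.05 (Benjamini-Hochberg over all genes) was called. Correlations had 100000 permutations within plates. The named genes were all members, for each member the 6 highest and 3 lowest partners by r, the 4 highest and 4 lowest pairs, and up to 4 genes per list by p, with fewer printed. The edgeR, pair correlation and limma steps were tested on simulated data, and the other steps were not. No 2 libraries agreed within sampling noise. Libraries are from separate mice. Leaving out plates, shallow libraries and libraries against their label, other covariates, and other scalings were tried.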

Additional observations from a re-analysis of the deposited data

Results flagged for a closer look

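In groups of 4 to 10 libraries (17 groups for each of the 9 members, 153 in all), the gap between the extreme library and its neighbour was large for the range of the group in 14 cases. About 1 in 20 groups of independent, normally distributed values would pass the cutoff used. CPM values reached far upward for some members, and the members varied together, so the rate to be expected here is not known. All 14 were high values, from 9 libraries, in 8 members.

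The date label 14/04/2011 on plate 7 (10 libraries) held 7 of them. Female 74 stood above the others in Nfkb2 (73.3 CPM, next 48.9), Relb (32.2, next 16.5) and Rela (92.1, next 78.1). Female 75 stood above them in Nfkbia (164 CPM, next 111), Nfkbiz (22.7, next 11.7), Tnfaip3 (115, next 67.2) and Tnf (94.9, next 44.2). The 2 libraries share a plate and a date but not the genes in which they stood apart.

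At the label 2011-10-03 (5 libraries of plate 4), male 37 was high in Rela (109 CPM, next 75.9) and male 34 in Tnf (95.9 CPM, next 44.1). Nfkbiz was high in male 39 at 17/03/2011 (19.6 CPM, next 11.8) and in female 1 at 26/05/2011 (15.4 CPM, next 10.2). Single flags were Rel in male 49 at 23/06/2011 (40.4 CPM, next 34.4), Rela in female 35 at 23/09/2010 (95.9 CPM, next 81.5) and Relb in female 69 at 2011-07-04 (13.5 CPM, next 11.2), of which the last lies near the median of all libraries.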

How the results depend on the processing

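No paired analysis was possible because the labels give the libraries no shared replicate numbers. The counts of members called by sex (0), plate (7) and interaction (0) were the same under all alternatives run, and by date 9, or 8 without the shallow libraries. The count of all genes called by sex moved from 605 to 926 without the 6 libraries against their label, 948 with lane, and 356, 230 and 298 without plates 3, 4 and 7, and by interaction from 5 to 1 without those 6 libraries and with voom. Pairs called ranged from 25 to 30, and the median rho from 0.359 to 0.414, when 1 plate was left out. With date in place of plate 28 pairs were called and the median rho was 0.378, and with the first component removed it was 0.315. The members called beside Tnfaip3 went from 7 to 4 of 8 without plate 2 and with 1 or 5 components removed, beside Rela from 6 to 4 without plate 2, beside Nfkb1 from 7 to 5 with date in place of plate, beside Nfkbia from 8 to 6 with the first component removed, and beside Tnf from 4 to 8 with 5 removed. The rho of Rel and Nfkbiz went from 0.564 to 0.198 with 5 components removed. Libraries that share a date were treated as independent within a plate. Of 576 pair values under other settings, 16 changed sign. These were, with the first component removed, Rel and Rela (-0.12), Rel and Relb (-0.0047), Rela and Tnfaip3 (-0.0253), Rel and Tnf (0.150) and Rela and Tnf (0.312), and with 5 removed Rel and Tnf (0.284) and Rela and Tnf (0.307). Rel and Tnf also changed as Pearson's r (0.0060), and Rela and Tnf with date removed (0.0371), without shallow libraries (0.00077) and without plates 2 (0.0045) and 8 (0.0329). Tnfaip3 and Tnf changed with nothing removed (-0.0046), without plate 3 (-0.0172) and, chosen after seeing the data, without the 3 libraries highest in Tnf (-0.0313). Nfkb1 and Tnf changed without plate 4 (-0.0037).

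None of the sex differences passed, and 20 of 135 changed sign. Nfkb2 did so with date in place of plate (-0.0397), with lane (-0.0269) and without plates 1 (-0.0039), 3 (-0.0183), 4 (-0.0422) and 8 (-0.00022). Rela did so with date (-0.0143) and without plates 3 (-0.0018), 4 (-0.0185) and 10 (-0.0056), and Relb with voom (0.0141) and without plate 2 (0.0051). Nfkbia did so without shallow libraries (0.0093), with voom (0.0079), with date (0.0097) and without plates 2 (0.0290), 3 (0.0103), 7 (0.0371) and 10 (0.0077), and Nfkbiz with date (0.0204). The cause was not tested. Depth was not limiting for the members, whose lowest count in a library was 138 (Nfkbiz).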
